A study of Mus musculus with 7 samples.

Results

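Toll-like receptors and the proteins that hand lipopolysaccharide (LPS) to them were examined in mouse spleen after an injection of LPS. The genes were chosen by name, without a cut on their values but with earlier results of these data known. Taken from the deposited expression table, the 10 were Tlr1, Tlr2, Tlr3, Tlr4, Tlr6, Tlr7, Tlr9, Tlr13, Cd14 and Ly96. They are 10 of the 17920 genes in that table, and all 10 passed the filter on low values that left 11378 genes for testing. The study compared wild-type mice with mice lacking GdX (UBL4A), a ubiquitin-like protein encoded on the X chromosome. All mice were labelled C57BL/6, were 8 weeks old and received 20 mg/kg LPS intraperitoneally. Spleens were taken 90 min or 6 h later, from wild-type mice (2 libraries at 90 min and 2 at 6 h) and from mice with the genotype GdX-/-, also written GdX-/Y (2 libraries at 90 min and 1 at 6 h). The design text counts 4 wild-type and 3 GdX-/- mice, which is 1 mouse per library. Unstimulated spleen was not analysed here, so no level can be set against one before LPS, and every group carries the LPS treatment. The line is a whole-body deletion as far as its genotype label tells, and the allele's construction is not given in the sources used here.

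Toll-like receptors are membrane proteins that recognise microbial molecules and start inflammatory transcription through the adaptors MyD88 and TRIF. At the cell surface, TLR4 binds LPS together with MD-2 (encoded by Ly96) after CD14 has delivered it, while TLR2 pairs with TLR1 or TLR6 to bind bacterial lipoproteins. In endosomes, TLR3 senses double-stranded RNA, TLR7 single-stranded RNA, TLR9 DNA with unmethylated CpG, and TLR13, present in mice, bacterial ribosomal RNA. In spleen the surface receptors are known from macrophages, monocytes, neutrophils and dendritic cells, among other cells. TLR7 and TLR9 are known from B cells and plasmacytoid dendritic cells, among others.

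Promoter sequences of 6 of the 10 genes were taken from a RefSeq table of GRCm38.p6, and those of Cd14, Tlr4, Tlr7 and Ly96 were not searched. Of the 6, 3 are shown: Tlr2 had the clearest change below, Tlr3 holds the other kappaB match, and Tlr9 had the least steady values. Each was searched on both strands, over the 250 bases before the annotated start, for the kappaB consensus, an AP-1 site (TGANTCA), an ETS site (AGGAAGT) and the core of an interferon-stimulated response element. The first pair below shows 30 bases around the kappaB match of Tlr2 and of Tlr3, and the third shows all 250 bases of Tlr9. Capitals mark the match.
Tlr2, minus strand, chr3:83841762-83841791: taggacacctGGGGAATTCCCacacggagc
Tlr3, minus strand, chr8:45410572-45410601: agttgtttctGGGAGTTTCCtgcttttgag
Tlr9, plus strand, chr9:106222348-106222597: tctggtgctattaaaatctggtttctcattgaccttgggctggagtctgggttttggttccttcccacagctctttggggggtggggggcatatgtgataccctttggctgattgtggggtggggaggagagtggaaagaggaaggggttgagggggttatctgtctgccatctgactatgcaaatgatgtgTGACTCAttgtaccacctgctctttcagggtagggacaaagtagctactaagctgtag

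The match in Tlr2 begins 173 bases before the start and spans 11 bases, because the consensus fits in a pair of overlapping registers. In Tlr3 the match begins 211 bases before the start. In Tlr9 the capitals are an AP-1 site 58 bases before the start, and no kappaB match lies in the window. The kappaB consensus was found in 3.9% and the AP-1 site in 6.75% of 32851 promoters of this length. Tlr6 held matches to the interferon-stimulated element core and the ETS site and Tlr1 to the ETS site, each in 1 of 2 annotated promoters, and Tlr13 to none of the motifs. Those elements were found in 2.98% and 7.69% of the promoters. A match describes these letters only, and binding was not measured.

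Messenger RNA was measured as FPKM (fragments per kilobase of transcript, scaled by the mapped fragments of the library), a level per length that allows genes to be compared. The depth, estimated from the steps between low FPKM values, lay between 19000000 and 20800000 fragments per library. Levels of Ubl4a, the targeted gene, were 4.03 and 5.69 (mutant) against 5.62 and 7.5 FPKM (wild type) at 90 min, and 10.56 (mutant) against 11.88 and 14.01 FPKM (wild type) at 6 h. The entry Gm44504, which overlaps Ubl4a, ranged from 0.66 to 1.86 FPKM in mutant and from 14.52 to 51.1 FPKM in wild-type spleen. How fragments were divided between these overlapping entries is not given in the sources used here. Globin transcripts made up 7.7% to 30.9% of the summed FPKM, a share that FPKM takes from all other genes.

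The members covered a wide range of levels. Cd14 was the most abundant in every library, at 117.55 to 315.99 FPKM, and Tlr4 the least abundant in every library, at 0.76 to 5.17 FPKM. Between them at 90 min in wild type lay Tlr2 at 44.2 ± 0.509 FPKM, Tlr1 at 35.9 ± 4.67, Tlr7 at 29.2 ± 7.74 and Ly96 at 16.9 ± 0.445 FPKM (SD, n = 2 each). They were followed by Tlr9 at 7.47 ± 7.01, Tlr3 at 6.84 ± 0.12, Tlr13 at 4.43 ± 0.976 and Tlr6 at 2.53 ± 0.0141 FPKM (SD, n = 2 each). In these libraries Tlr1 overlapped Tlr7, and Tlr9 overlapped Tlr3, Tlr13 and Tlr6, while Cd14, Tlr2 and Ly96 each stood clear of the next gene below. Among the Toll-like receptors outside the set, Tlr12 reached at most 4.13 FPKM and Tlr8 at most 2.31 FPKM. Tlr5 (at most 0.4 FPKM) and Tlr11 (at most 1.39 FPKM) had means too low to be tested.

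**Figure D1:**
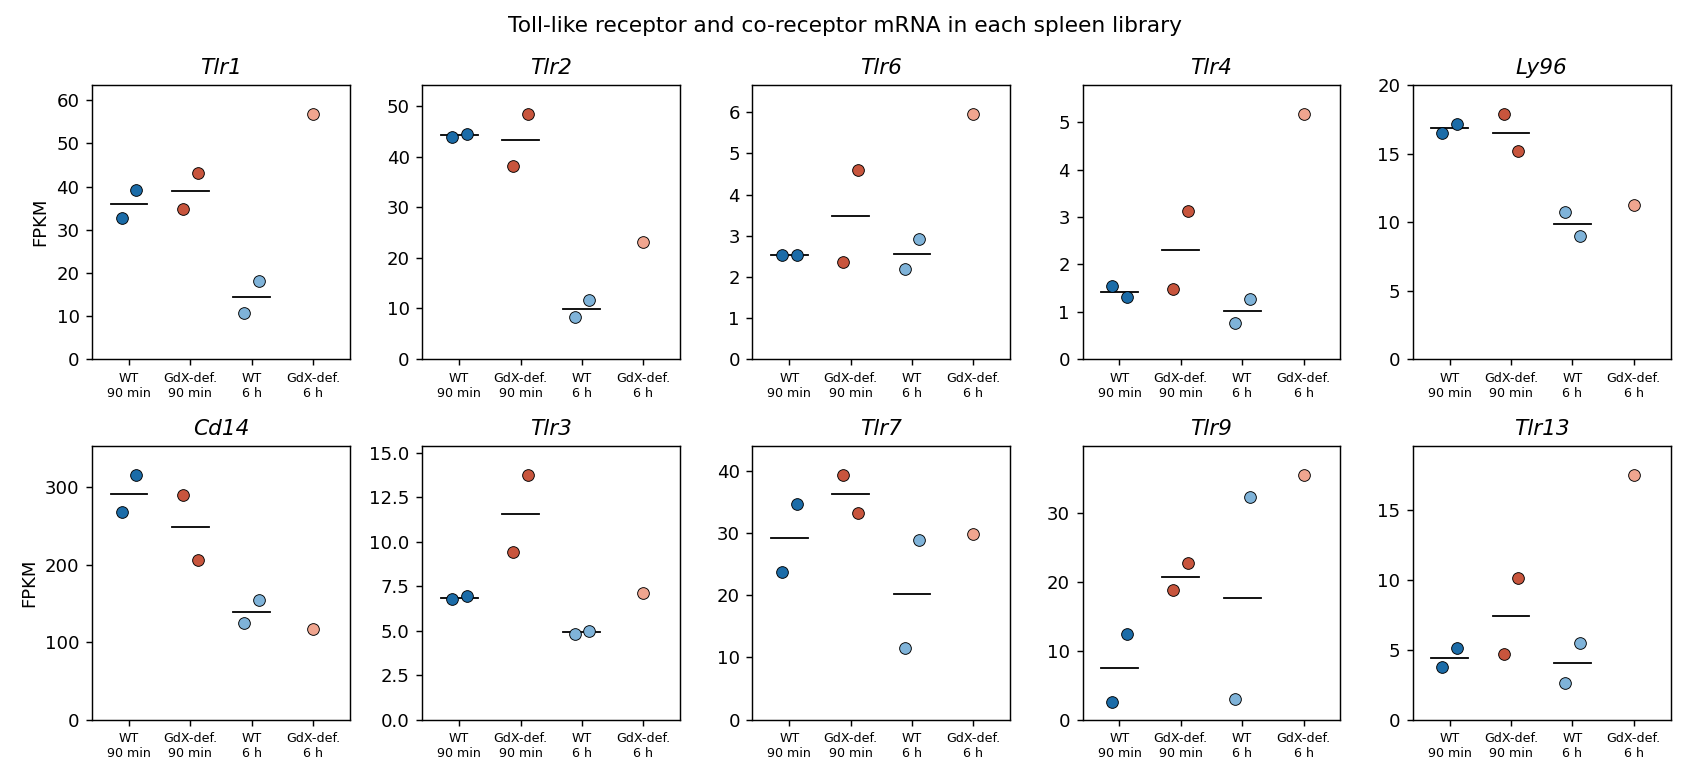
FPKM of the 10 genes in each of the 7 spleen libraries. Each point is 1 library, horizontal bars are group means (WT, wild type; GdX-def., GdX-deficient) and every axis starts at 0. Tlr1, Tlr2 and Cd14 were lower at 6 h than at 90 min in wild type, and the single GdX-deficient library at 6 h had the highest Tlr1, Tlr4, Tlr6, Tlr9 and Tlr13 values of all 7 libraries.

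The first comparison asked how the receptors changed between 90 min and 6 h after LPS in wild-type spleen, called the early and the late pair of libraries here. Tlr2, Tlr1 and Cd14 fell, and no member rose. These 3 of 10 passed the threshold (limma, Benjamini-Hochberg adjusted p under 0.05), where 10.7% of all genes did, 6.32% in the lower direction. The members' median log2 difference was -0.51, against 0.05 over all genes tested. The libraries of the times did not overlap for 6 members, each lower at 6 h, a pattern that 27.6% of all genes showed.

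Tlr2, the receptor for bacterial lipoproteins, had 43.83 and 44.55 FPKM in the early pair and 8.36 and 11.60 FPKM in the late pair. Both late libraries lay far below both early ones, a 4.43-fold lower mean. The log2 difference was -2.06 (SE 0.27, 95% interval -2.67 to -1.44, limma adjusted p = 0.00381). Tlr1, a partner of TLR2, had 32.64 and 39.25 FPKM early and 10.63 and 18.18 FPKM late, again without overlap, and fell by 1.30 in log2 units (SE 0.31, limma adjusted p = 0.0289). Tlr6, the alternative partner, had 2.52 and 2.54 FPKM early and 2.19 and 2.91 FPKM late. The late libraries lay on either side of the early ones, with a log2 difference of 0.00 (SE 0.32, 95% interval -0.72 to 0.72). Tlr1 and Tlr6 are neighbouring genes of similar sequence on chromosome 5, so the division of fragments between them is uncertain.

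Of the LPS receptor complex, Cd14, which delivers LPS to TLR4, had 267.79 and 315.99 FPKM early and 124.70 and 154.67 FPKM late. The times did not overlap, and Cd14 fell by 1.06 in log2 units (SE 0.27, limma adjusted p = 0.0393). Ly96, whose product MD-2 holds LPS on TLR4, had 16.55 and 17.18 FPKM early and 10.73 and 9.02 FPKM late. Its libraries were also apart, 1.71-fold lower at 6 h, but the difference of -0.72 (SE 0.27, limma adjusted p = 0.119) did not pass. Tlr4, the signalling receptor itself, had 1.55 and 1.30 FPKM early and 0.76 and 1.26 FPKM late, a difference of -0.28 (SE 0.31, limma adjusted p = 0.597). At these levels Tlr4 rests on about 64 to 128 fragments in the wild-type libraries, against 4215 to 10526 for Cd14.

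The call of Tlr2 held in each alternative analysis, with limma adjusted p between 4.68e-05 and 0.0329. Tlr1 and Cd14 were less steady: without a filter on low values their limma adjusted p was 0.0774 and 0.0791, and after rescaling without globin genes 0.0592 and 0.0533. Leaving out either early library, or replicate 1 of the late pair, neither passed. Tlr1 was also lost in a fit of the 4 wild-type libraries alone (limma adjusted p = 0.0509) and without either GdX-deficient library at 90 min (limma adjusted p = 0.0506 and 0.0505).

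Among the endosomal receptors none passed in wild type. Tlr3, the sensor of double-stranded RNA, had 6.76 and 6.93 FPKM early and 4.84 and 5.01 FPKM late. Its replicates lay close together and the times were apart, but the log2 difference of -0.41 (SE 0.30, limma adjusted p = 0.412) did not pass. Tlr7, the sensor of single-stranded RNA, had 23.76 and 34.71 FPKM early and 11.49 and 28.87 FPKM late, so the times overlapped (log2 difference -0.62, SE 0.40). Tlr13 had 3.74 and 5.12 FPKM early and 2.64 and 5.45 FPKM late, overlapping as well (log2 difference -0.15, SE 0.41).

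Tlr9, the receptor for CpG DNA, had the least steady values of the set. It had 2.52 and 12.43 FPKM in the early and 2.95 and 32.35 FPKM in the late wild-type pair. In each pair replicate 2 was the higher, by 4.93-fold at 90 min and 11.0-fold at 6 h, while the GdX-deficient pair at 90 min, at 18.78 and 22.78 FPKM, differed 1.21-fold. On the log2 scale the wild-type pairs differed by 1.93 and 3.08, a distance that 0.123% and 0.114% of all tested genes reached. The time difference in wild type was accordingly 0.74 with an SE of 0.88 (limma adjusted p = 0.63). Leaving out replicate 1 at 6 h gave 2.28 (limma adjusted p = 0.00217), and leaving out replicate 2 at 6 h gave -0.80. Tlr7 also differed 2.51-fold within the 6 h wild-type pair, a distance reached by 3.42% of genes. Without replicate 2 at 6 h its time difference was -1.25 (limma adjusted p = 0.0156).

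The differences within pairs moved with transcript length across the 11180 genes of known length: Spearman's rho of replicate 2 minus replicate 1 with length was 0.446 in wild type at 90 min, 0.591 in wild type at 6 h and 0.166 in GdX-deficient spleen at 90 min. Genes are not independent replicates, and these values are descriptions. The members are given here in order of length with their log2 differences in the early and the late wild-type pair. Tlr3 (4407 bases) differed by 0.03 and 0.04, Tlr4 (4077 bases) by -0.15 and 0.36, and Tlr13 (4060 bases) by 0.37 and 0.83. Tlr6 (3677 bases) differed by 0.01 and 0.29, Tlr9 (3478 bases) by 1.93 and 3.08, and Tlr7 (3146 bases) by 0.53 and 1.26. Tlr2 (3014 bases) differed by 0.02 and 0.43, Tlr1 (2904 bases) by 0.26 and 0.72, Cd14 (1641 bases) by 0.24 and 0.31, and Ly96 (530 bases) by 0.05 and -0.23. The part of length in the Tlr9 values was not tested for this gene alone.

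**Figure D2:**
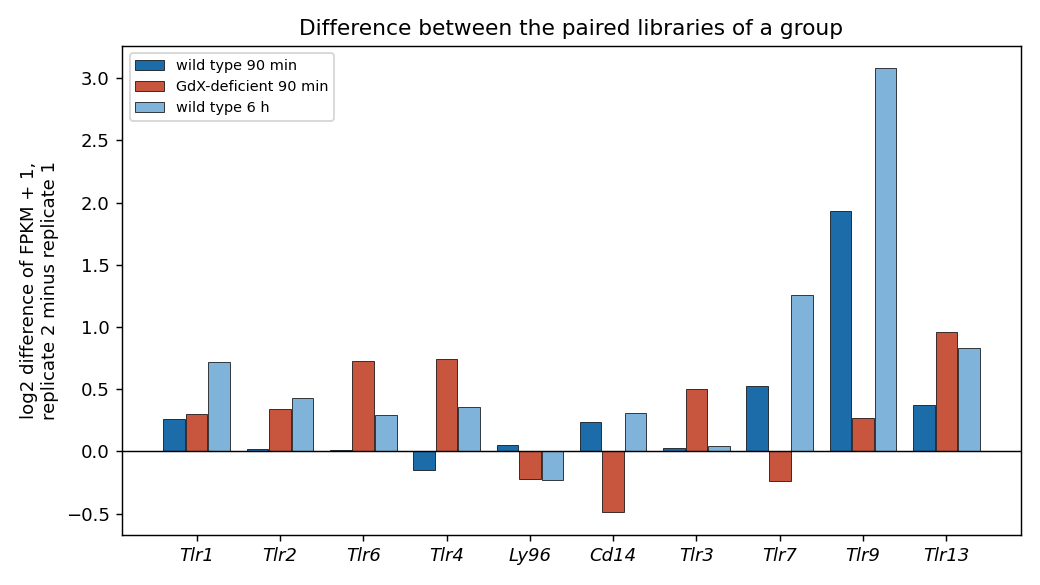
Difference of log2(FPKM + 1) between the paired libraries of a group, replicate 2 minus replicate 1, for the 10 genes; bars start at 0. Tlr9 differed by 1.93 and 3.08 in the wild-type pairs, further than any other member, and Tlr7 by 1.26 in the 6 h wild-type pair.

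Marker genes of spleen cells also moved with time in wild type. None of the markers examined that is in the table was listed at 0 in any library. The summed level of 8 monocyte and macrophage markers was 1060 and 1170 FPKM early and 445 and 583 FPKM late, and 3 of the 8 fell (Csf1r, Lyz2 and Cx3cr1). The sum of 8 B cell markers went from 1670 and 1560 FPKM to 503 and 515 FPKM, and 4 of the 8 fell (Cd79a, Cr2, Fcer2a and Blk). The sum of 8 T cell markers went from 405 and 348 FPKM to 183 and 159 FPKM, and 5 of the 8 fell. Also lower were 5 of 6 markers of red cell precursors (median log2 difference -1.70), 4 of 7 of conventional dendritic cells (-1.12), 4 of 8 of red pulp macrophages (-0.87) and 2 of 7 of endothelium and stroma (-0.66). Over all genes, 6.32% were called lower. Of 3 marginal zone macrophage and 5 natural killer cell markers none passed. Of 9 neutrophil markers none passed in either direction, with sums of 1270 and 797 FPKM early and 1160 and 791 FPKM late. Of 8 markers of plasmacytoid dendritic cells 6 were below 0 in log2 difference, with a median of -0.37, and 2 of them fell (Siglech and Spib). Their sum, 432 and 428 FPKM early and 916 and 492 FPKM late, went the other way with its most abundant gene Bst2 (log2 difference 1.06, limma adjusted p = 0.0933). In whole spleen, fewer cells of a type and less RNA per cell cannot be told apart, and the part of cell makeup in the receptor values was not tested.

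The second comparison asked how loss of GdX altered the receptors at 90 min. No member passed (limma), none had an unadjusted p under 0.05, and 0.0176% of all genes passed. The members' median log2 difference, GdX-deficient minus wild type, was 0.31 against 0.07 over all genes. The genotypes' libraries were apart only for Tlr3 and Tlr9, both higher in GdX-deficient spleen, where 24.1% of all genes were apart in that direction. Tlr3 had 9.40 and 13.75 FPKM without GdX and 6.76 and 6.93 FPKM with it, a log2 difference of 0.66 (SE 0.30, 95% interval -0.02 to 1.33, limma adjusted p = 0.621). For Tlr9, with the values above, the difference was 1.66 (SE 0.88, 95% interval -0.33 to 3.64, limma adjusted p = 0.621). In a fit of the 4 libraries at 90 min alone, Tlr9 passed at a limma adjusted p of 0.0338, where 181 of all genes passed in place of 2. The spread in that fit does not draw on the late wild-type pair, whose Tlr9 values lay furthest apart.

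For the LPS receptor complex the genotypes overlapped at 90 min. Cd14 was at 290.44 and 206.60 FPKM in GdX-deficient spleen, with a log2 difference of -0.25 (95% interval -0.86 to 0.37). Ly96 was at 17.88 and 15.19 FPKM, with a difference of -0.03 (95% interval -0.64 to 0.58). Tlr4 was at 1.47 and 3.13 FPKM, with a difference of 0.40 (95% interval -0.30 to 1.10). These intervals are wide, so equal levels are not shown.

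The TLR2 group overlapped as well. Tlr2 had 38.10 and 48.38 FPKM in GdX-deficient spleen (log2 difference -0.04, SE 0.27), Tlr1 at 34.89 and 43.22 FPKM (0.11, SE 0.31) and Tlr6 at 2.37 and 4.60 FPKM (0.30, SE 0.32). Tlr7 stood at 39.28 and 33.21 FPKM (0.32, SE 0.40) and Tlr13 at 4.70 and 10.12 FPKM (0.56, SE 0.41). In Tlr4, Tlr6 and Tlr13, replicate 2 of the GdX-deficient pair was the higher and replicate 1 lay within or near the wild-type range. That replicate also had the highest summed neutrophil markers of all libraries, at 4860 FPKM against 1100 FPKM in replicate 1, and the highest summed B cell markers, at 2210 FPKM.

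**Figure D3:**
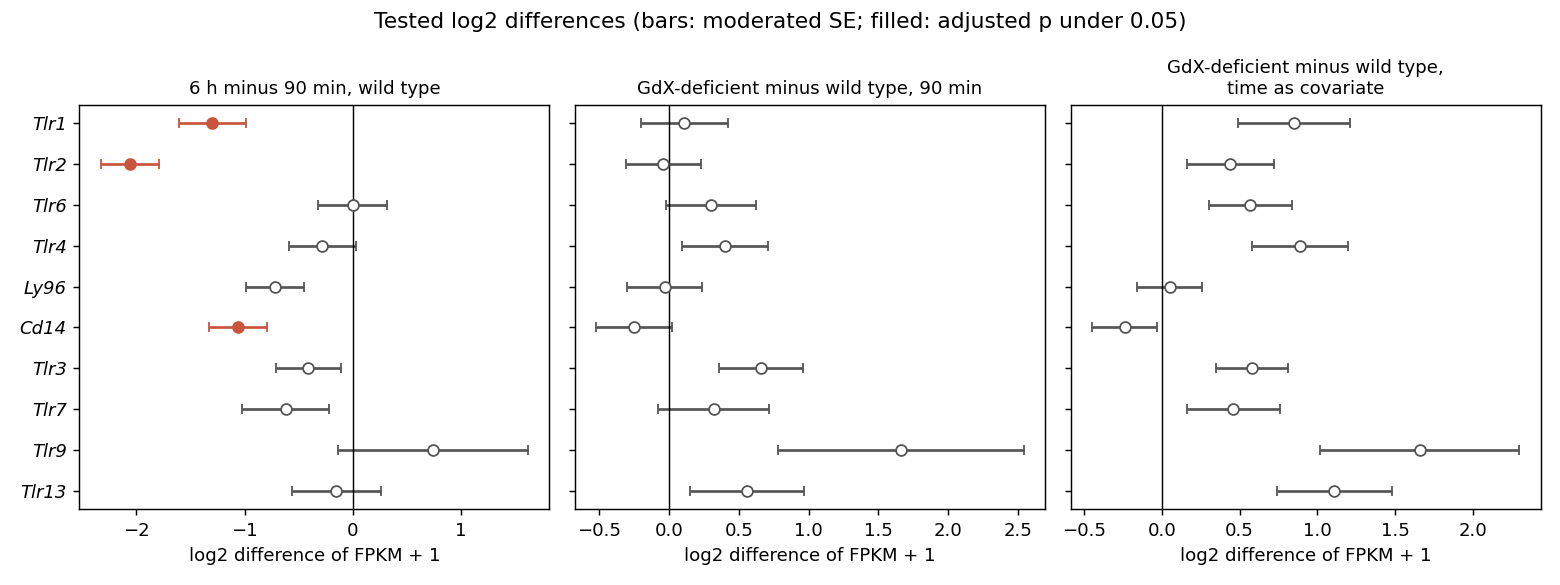
Log2 differences of FPKM + 1 for the 10 genes in 3 tested comparisons: 6 h minus 90 min in wild type (left), GdX-deficient minus wild type at 90 min (middle) and the same genotype difference over all libraries with time as covariate (right). Points are limma estimates, bars are moderated standard errors and filled points have an adjusted p under 0.05, which Tlr1, Tlr2 and Cd14 have in the left panel and no gene has in the other panels.

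At 6 h the GdX-deficient group is 1 library, so its values were set beside the wild-type pair without a test. All 10 members fell outside the wild-type pair, 9 above it and Cd14 below, as did 80.3% of all genes. A gene was counted when it was also at least 2-fold from the pair's mean on the log2(FPKM + 1) scale. By that rule 5 members were higher (Tlr1, Tlr2, Tlr4, Tlr9 and Tlr13) and none lower, where 22% of all genes were counted, 16.5% in the higher direction. The members' median log2 difference was 1.07, against 0.32 over all genes. The excess of higher genes depended on the scaling: 1879 genes were counted higher and 622 lower, and after quantile normalization 951 and 881, with a median over all genes of -0.02. Under that scaling 4 members were counted, all higher, Tlr2 fell short at 0.90, and the differences of Tlr3 (-0.06), Ly96 (-0.18) and Cd14 (0.01) changed sign.

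Tlr4 reached 5.17 FPKM against 0.76 and 1.26 FPKM in wild type, 5.12-fold above their mean. Tlr13 was at 17.47 FPKM against 2.64 and 5.45 FPKM, a ratio of 4.32. Tlr1 was at 56.74 FPKM against 10.63 and 18.18 FPKM, a ratio of 3.94. For these 3 genes, the GdX-deficient value was also above every library at 90 min. Tlr6, at 5.95 FPKM against 2.19 and 2.91 FPKM, was 2.33-fold higher by FPKM but 0.98 higher on the log2(FPKM + 1) scale, just short of the count. Tlr2, at 23.18 FPKM against 8.36 and 11.60 FPKM, was 2.32-fold higher, and still below every library at 90 min. On the log2 scale Tlr2 was 0.94 above replicate 2, short of the count, and 1.37 above replicate 1.

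For Tlr9 the choice of wild-type library decided the value. At 35.50 FPKM it was 0.13 above replicate 2 and 3.21 above replicate 1 of wild type on the log2 scale. Tlr7, at 29.75 FPKM, likewise stood 0.04 above replicate 2 and 1.30 above replicate 1. Tlr3 (7.15 FPKM), Ly96 (11.29 FPKM) and Cd14 (117.55 FPKM) differed from the wild-type mean by 0.46, 0.18 and -0.24 on the log2 scale. With the trend on transcript length removed from each library, 3 members were counted in place of 5.

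Other genes of the spleen were also higher in that library. Where 16.5% of all genes were counted higher, so were 7 of 9 neutrophil, 6 of 8 monocyte and macrophage and 6 of 8 B cell markers. Their sums in the GdX-deficient library were 2600, 1210 and 1860 FPKM, in that order, against at most 1160, 583 and 515 FPKM in the 6 h wild-type pair. The neutrophil markers Camp and Ngp were instead lower, by log2 differences of -0.76 and -0.32. Counted higher too were 5 of 6 markers of red cell precursors (sum 601 against 197 and 271 FPKM), 5 of 8 of T cells, 4 of 7 of endothelium and stroma and 3 of 8 of red pulp macrophages. The remaining lists had 2 of 8 (plasmacytoid dendritic cells, with 1 lower), 2 of 7 (conventional dendritic cells), 2 of 5 (natural killer cells) and 1 of 3 (marginal zone macrophages). Whether these markers and the receptors moved for one reason was not tested.

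Using every library, genotype was compared with time as a covariate, 3 GdX-deficient against 4 wild-type libraries. No member passed (limma), where 0.0439% of all genes did. Tlr1, Tlr3, Tlr4, Tlr9 and Tlr13, 5 of 10, had an unadjusted p under 0.05, as did 27% of all genes. The estimates were 1.66 for Tlr9 (SE 0.64, limma adjusted p = 0.14), 1.11 for Tlr13 (SE 0.37, limma adjusted p = 0.116) and 0.89 for Tlr4 (SE 0.31, limma adjusted p = 0.12). Tlr1 came to 0.85 (SE 0.36), Tlr3 to 0.58 (SE 0.23) and Tlr6 to 0.57 (SE 0.27). Cd14, at -0.24 (SE 0.21), and Ly96, at 0.05 (SE 0.21), had the smallest standard errors. The median of the members was 0.57, against 0.16 over all genes. Replicate 1 of the GdX-deficient pair at 90 min decided the calls: without it Tlr4, Tlr6 and Tlr13 passed, at limma adjusted p of 0.0281, 0.0467 and 0.0278, while 1674 of 11378 genes passed.

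The interaction asked whether the change between 90 min and 6 h differed between the genotypes. The single GdX-deficient library at 6 h was assumed to vary like the others. No member passed (limma), where 0.0703% of all genes did, and 3 members had an unadjusted p under 0.05, as did 9.98% of all genes. Tlr1 had the largest estimate: it was 2.50-fold lower at 6 h in wild type and 1.45-fold higher in the GdX-deficient library, a log2 interaction of 1.84 (SE 0.48, 95% interval 0.75 to 2.93, limma adjusted p = 0.204). Leaving out 1 library at a time, the interaction of Tlr1 ranged from 1.48 to 2.2. It was highest without replicate 2 of wild type at 6 h, a fit with 1 library per genotype at 6 h. For Tlr4 the interaction was 1.23 (SE 0.49, limma adjusted p = 0.432), for Tlr2 1.20 (SE 0.43, limma adjusted p = 0.365) and for Tlr13 1.37 (SE 0.65, limma adjusted p = 0.548). The interaction of Cd14 was 0.01 (SE 0.43, 95% interval -0.96 to 0.98).

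Cd14 was also at least 2-fold lower at 6 h in the GdX-deficient mice, at 117.55 FPKM after 290.44 and 206.60 FPKM at 90 min, a log2 difference of -1.05 with no test. Tlr13 was the other member counted there, 1.21 higher at 6 h, where 5.73% of all genes were counted in either direction. Both counts depended on 1 library at 90 min: without replicate 1 neither was counted (0.73 for Tlr13 and -0.81 for Cd14), and without replicate 2 the differences were 1.70 and -1.30. By FPKM, Tlr4 was 2.25-fold, Tlr6 and Tlr9 1.71-fold and Tlr1 1.45-fold higher, short of the count on the log2(FPKM + 1) scale. Lower were Tlr2 by 1.87-fold, Tlr3 by 1.62-fold, Ly96 by 1.46-fold and Tlr7 by 1.22-fold. Without replicate 2 at 90 min the log2 differences of Tlr4 and Tlr6 were 1.32 and 1.04. Without replicate 1 that of Tlr2 was -1.03, so these members then reached the 2-fold rule. This comparison shares its 6 h library with the genotype comparison at 6 h.

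Across the 7 libraries the members fell into profiles that are described here without a test, since the libraries share groups. Tlr4, Tlr6 and Tlr13 followed each other, with Pearson's r of log2(FPKM + 1) of 0.96 for Tlr4 with Tlr6, 0.96 for Tlr4 with Tlr13 and 0.97 for Tlr6 with Tlr13. All 3 peaked in the single GdX-deficient library at 6 h and were next highest in replicate 2 of the GdX-deficient pair at 90 min, the libraries that also had the highest summed neutrophil markers (2600 and 4860 FPKM) and B cell markers (1860 and 2210 FPKM). The monocyte and macrophage markers summed to 1210 and 1020 FPKM in these libraries, in the same order, the latter below both wild-type libraries at 90 min (1060 and 1170 FPKM). Of the 9 neutrophil markers, 8 were above wild type at 90 min and 7 at 6 h. Camp was below it at both times (log2 differences -0.63 and -0.76). The part of these cell types in the profiles was not tested. Ly96 instead followed Tlr2 (r = 0.89) and Cd14 (r = 0.88). Tlr4 and Cd14, which act in one receptor complex, had an r of -0.28.

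**Figure D4:**
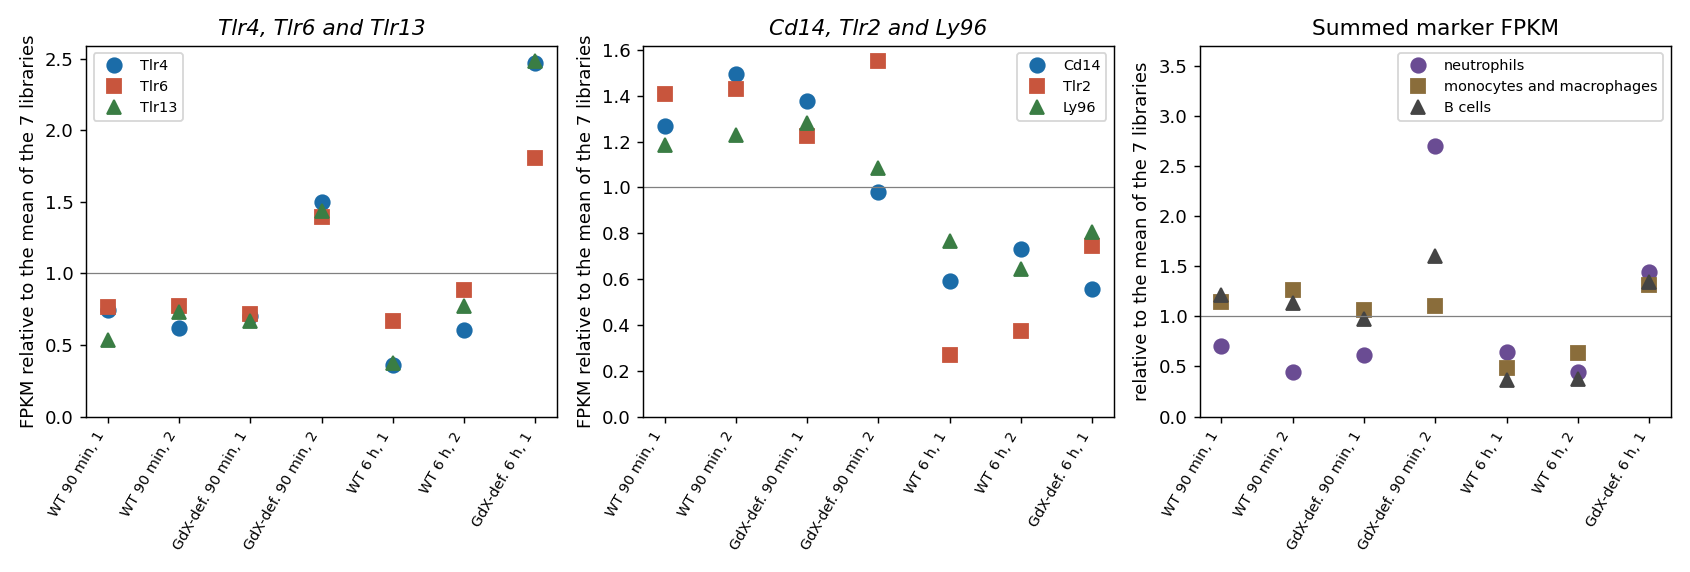
FPKM of Tlr4, Tlr6 and Tlr13 (left), of Cd14, Tlr2 and Ly96 (middle) and summed FPKM of marker genes (right) in the 7 libraries, each divided by its mean over the 7 libraries, which the grey line marks. Tlr4, Tlr6 and Tlr13 were highest in the 6 h GdX-deficient library and in replicate 2 of GdX-deficient spleen at 90 min, where the marker sums of neutrophils (2600 and 4860 FPKM) and B cells (1860 and 2210 FPKM) were highest too, and those of monocytes and macrophages were 1210 and 1020 FPKM.

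The tested genes most like each member over the 7 libraries were named by Pearson's r. For Tlr1 they were Tbc1d9 and Rac2, a GTPase of blood cells (r = 0.996 each), and Spib, a transcription factor of B cells and plasmacytoid dendritic cells (r = 0.993). For Tlr2 the closest was Rab27a, a GTPase of vesicle secretion (r = 0.992), followed by Ppm1j and Ms4a4b. For Cd14 they were Gem (r = 0.988), Stat4 and Socs3, the feedback inhibitor of cytokine signalling (r = 0.985). Ly96 was most like Mob3c (r = 0.987), Sap30 and Plcd3. Tlr4 was most like Rcor3, Ankmy2 and Tmem55a, Tlr6 like Mical1, Nfam1 and Tmem154, and Tlr13 like Fam65a, Zfp385a and Slc9a3r1.

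For the endosomal receptors, Tlr3 was most like Ccne2, a cyclin of DNA replication (r = 0.996), Ccnl2 and Ctrl, and Tlr7 like Etv3, Slfn1 and Rapgef6. Tlr9 was most like Kansl3, Srcap and Ambra1 (r = 0.995 to 0.996). All 3 were higher in replicate 2 of both wild-type pairs, as Tlr9 was, but by smaller folds. Kansl3 had 7.43 and 12.71 FPKM early and 7.88 and 16.28 FPKM late. Srcap, a chromatin remodeller, had 6.1 and 13.06 FPKM early and 5.82 and 19.43 FPKM late. Ambra1 had 5.01 and 8.61 FPKM early and 5.32 and 12.52 FPKM late. With 11378 genes and 7 libraries, values of r this high are a ranking and nothing more.

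The wider pathway was read from lists of 62 genes, of which 61 were in the table and 57 were tested. With time in wild type 1 of the 57 rose and 4 fell, where 10.7% of all genes passed. Aoah, the enzyme that removes acyl chains from LPS, rose from 1.09 and 1.42 FPKM to 5.46 and 8.79 FPKM (log2 difference 1.82, limma adjusted p = 0.00995). Cd36, a scavenger receptor that aids TLR2, fell from 30.60 and 33.59 FPKM to 8.51 and 15.27 FPKM (-1.41, limma adjusted p = 0.0214). Inpp5d, a phosphatase that restrains the signalling, fell by 1.18 on the log2 scale (limma adjusted p = 0.0283). Ticam2, an adaptor of TLR4 known as TRAM, fell by 1.06 (limma adjusted p = 0.049) and Tlr8 by 0.94 (limma adjusted p = 0.0417). Of the 21 adaptors and kinases tested, Ticam2 was the only one that passed. Myd88, the shared adaptor, had 89.03 and 126.24 FPKM early and 64.83 and 81.03 FPKM late.

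No pathway gene passed (limma) in the genotype comparison at 90 min, in the one with time as covariate or in the interaction. In these comparisons 1, 10 and 12 of the 57 had an unadjusted p under 0.05, as did 7.58%, 27% and 9.98% of all genes, in that order. The smallest p values at 90 min belonged to Ctsl, an endosomal protease that cleaves Toll-like receptors (-1.06, limma adjusted p = 0.52), and, in the higher direction, to the integrin subunit Itgam (1.03, limma adjusted p = 0.621). With time as covariate, Cd180, a homologue of TLR4 on B cells, was 1.78 higher (limma adjusted p = 0.104). It had 15.35 and 33.48 FPKM in the mutants at 90 min and 41.92 FPKM in the 6 h mutant. In wild type it had 8.22 and 13.70 FPKM early and 2.22 and 9.08 FPKM late. Ly86, its MD-2-like partner, did not share this order, at 214.09, 181.16 and 164.07 FPKM in mutants against 276.22, 214.85, 203.74 and 144.97 FPKM in wild type.

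In the single GdX-deficient library at 6 h, 11 of the 57 pathway genes were counted higher and 1 lower, where 22% of all genes were counted. The higher ones were Tlr8, Slc15a4, Cd36, Itgam, Itgb2, Trem1, Cd180, Sigirr, Nlrc3, Ptpn6 and Inpp5d, and the lower one was Socs1, an inhibitor of cytokine signalling (log2 difference -1.37). None of the 21 adaptors and kinases was counted. Unc93b1, the chaperone that carries TLR3, TLR7, TLR9 and TLR13 to endosomes, was at 288.10 FPKM in that library and at 181.99 and 187.79 FPKM in the wild-type pair.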

How the data were processed

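Total RNA from spleens was sequenced on a BGISEQ-500 after poly(A) selection or rRNA depletion, per the labels' protocols. The authors deposited FPKM values for 7 libraries, 1 column each, per the file headers; 0 columns of other samples were present. The submitters' processing notes name HISAT2 2.0.4, Bowtie2, RSEM and the build GRCm38.p5. No counts were used here, so a count test was not run. Values were converted to log2(FPKM + 1), which understates changes of low genes. Genes averaging at least 1 FPKM, 11378 in all, entered limma 3.58.1 (R 4.3.3, empirical Bayes with a trend), two-sided, with Benjamini-Hochberg adjustment over all of them and a threshold of 0.05. The fit of 4 groups took its spread from the 3 pairs of libraries; genotype with time as covariate was additive. Comparisons with 1 library on a side have no test: a gene was counted when at least 2-fold from the pair's mean and outside both libraries. The scripts were tested on simulated data.

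Samples were grouped by their titles. The members, the pathway and marker lists and the tests were chosen with earlier results of these data known. All members were named, with up to 4 passing pathway genes per direction and tested comparison (otherwise up to 2 with the smallest p), and for each member the 3 genes with the highest r. The pathway genes listed for 6 h, the other Toll-like receptors, Myd88, Ly86, Unc93b1, Ubl4a, Gm44504 and the marker genes were named outside this rule, after their values were seen. Transcript lengths and GC content came from GENCODE M21, promoters from RefSeq (GRCm38.p6). Alternatives changed the pseudocount, filter, scaling, length correction, libraries and replicate block.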

Additional observations from a re-analysis of the deposited data

How the results depend on the processing

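The fits were repeated with other settings, and 788 values of the 10 members resulted. Of these, 698 kept their direction and their side of the threshold (or, untested, moved by less than the spread), 30 untested ones moved further (5 of them across 0), 13 lost a call, 9 gained one and 38 tested ones changed sign. Removal of length and GC trends together and the block for the interaction were chosen after seeing the data. DESeq2, planned for counts, could not be run on FPKM. Tlr2 kept its call with time in wild type in all of them. With all libraries kept, these signs changed. The untested difference at 6 h became -0.06 for Tlr3, -0.18 for Ly96 and 0.01 for Cd14 after quantile normalization, 0.04 for Cd14 after globin rescaling and -0.04 for Tlr3 with the length trend removed. With a pseudocount of 0.1, time in wild type gave -0.002 for Tlr6 and the interaction -0.02 for Tlr9. Quantile normalization gave 0.04 for Tlr2 at 90 min, -0.13 for Ly96 with time as covariate, and interactions of -0.17 for Tlr9 and -0.09 for Ly96. Rescaling without globin genes gave 0.16 for Tlr2 and 0.17 for Ly96 at 90 min, and -0.07 for Tlr6 with time. Removing the length trend gave 0.34 for Ly96 at 90 min, -0.01 for Tlr6 with time, and interactions of -0.24 for Tlr9 and -0.15 for Cd14. Removing length and GC trends gave 0.24 for Ly96 and interactions of -0.33 for Tlr9 and -0.16 for Cd14.

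Leaving out 1 library at a time, the 90 min genotype difference ranged from -0.04 to 0.27 for Tlr1, -0.21 to 0.13 for Tlr2, -0.07 to 0.67 for Tlr6 and -0.14 to 0.08 for Ly96. Time in wild type ranged from -0.15 to 0.15 for Tlr6, -1.25 to 0.01 for Tlr7, -0.80 to 2.28 for Tlr9 and -0.57 to 0.26 for Tlr13. Genotype with time as covariate ranged from -0.04 to 0.64 for Tlr2 and -0.03 to 0.13 for Ly96. The interaction ranged from -0.45 to 0.05 for Tlr3, -0.28 to 0.98 for Tlr7, -1.53 to 1.55 for Tlr9 and -0.24 to 0.25 for Cd14.

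Members passing or counted, leaving out 1 library, ranged from 0 to 1 for genotype at 90 min, 1 to 4 for time in wild type, 0 to 3 with time as covariate, 0 to 1 for the interaction, 3 to 7 for genotype at 6 h and 1 to 4 for time in GdX-deficient mice. All genes passing ranged from 2 to 183, 450 to 1774, 2 to 1674, 0 to 238, 1887 to 3830 and 585 to 1336, in the same order. Time in wild type kept 1 member in place of 3 without a filter and after globin rescaling, with 635 and 708 of all genes in place of 1218. Genotype at 6 h counted 3 members in place of 5 after removal of the length trend, alone or with GC. The fit of the 4 libraries at 90 min called 1 member and 181 genes in place of 2.

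Counts of all genes moved elsewhere too. The interaction, with 8 genes, had 0 at a pseudocount of 0.1, at a mean FPKM of at least 5 and after globin rescaling, 3 without a filter, 4 after quantile normalization, 45 with the length trend removed and 20 with length and GC removed. Time in wild type had 2423 and 2622 under the last pair of settings, genotype at 90 min 0 and 0, and genotype with time as covariate, with 5 genes, 1 under the last. Time in GdX-deficient mice, with 652 genes, had 1033 at a pseudocount of 0.1 and 421 at a mean of at least 5. Genotype at 6 h split into 1879 higher and 622 lower genes, and after quantile normalization into 951 and 881. Quantile normalization moved the median over all genes from 0.32 to -0.02 there, from 0.16 to -0.01 with time as covariate, from 0.19 to -0.05 in the interaction and from 0.25 to 0.02 for time in GdX-deficient mice, where the split went from 465 higher and 187 lower to 262 and 325. Tlr4 and Tlr6 were not tested at a mean of at least 5.

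The labels do not say that a replicate number marks a shared animal or batch. Deviations of same-numbered libraries correlated at 0.768 between the wild-type groups at 90 min and 6 h, at -0.12 between the genotypes at 90 min and at 0.08 between GdX-deficient spleen at 90 min and wild type at 6 h. The main fit did not take the numbers to pair the samples. The wild-type groups, which the time comparison uses, did share deviations by replicate number, and the reason was not tested. With the replicate number as a block, time in wild type called 2345 genes in place of 1218, genotype with time as covariate 12 and the interaction 80. No member's call changed under the block. Depth limits Tlr4 and Ly96, with about 64 to 426 and 100 to 186 fragments per library.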

Other observations

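Aoah was also counted higher at 6 h in the GdX-deficient mice, at 7.86 FPKM after 1.21 and 1.90 FPKM at 90 min, and it was the only one of 57 pathway genes counted higher there, where 4.09% of all genes were. Of the 57, 2 were counted lower in that comparison, where 1.64% of all genes were. They were Tnfaip3 (log2 difference -1.55) and Socs1 (-1.88), both from the list of brakes on receptor signalling. Each value rests on 1 library at 6 h, and the 90 min pair had an SD of 1.08 for Tnfaip3 and 0.56 for Socs1. With time in wild type they differed by -1.3 and -0.73, and neither passed.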
